A study of Mus musculus with 10 samples.

Results

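The genes described here encode the subunits of the oxidative phosphorylation system of mitochondria, measured as messenger RNA in the livers of mice with lung cancer. They were taken by symbol from the deposited count table: protein-coding genes whose GENCODE M21 symbol begins with Ndufa, Ndufb, Ndufc, Ndufs or Ndufv and a number (complex I), is Sdha to Sdhd (complex II), begins with Uqcr or is Cyc1 (complex III), belongs to the Cox4 to Cox8 families (complex IV) or begins with Atp5 (complex V), together with the Nd, Co, Cytb and Atp genes of the mitochondrial genome. Of the 43629 genes in the table, 96 matched, and 86 of these had at least 10 counts in at least 5 livers and are the members described below, 79 from the nucleus and 7 from the mitochondrial genome. The symbol pattern leaves out Cox4i1, Cox4i2, Ndufab1 and the electron carrier Cycs, and it takes in a few proteins that are related to subunits without being one.

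The livers came from male mice of a genetically engineered lung cancer model, which carry Lkb1 flox/flox alleles and had been backcrossed to the FVB strain. Lung tumours were induced in adult mice by intranasal Ad5CMV-Cre, an adenovirus that expresses Cre recombinase from the CMV promoter, so Cre activity was set by the route of the virus and not by a cell-type promoter. All 10 mice had been given this treatment, and no tumour-free control was analysed here. The 5 mice without the cancer anorexia-cachexia syndrome (NCACS) had weight changes from -14 to -3%, and the 5 mice with it (CACS) had weight changes from -33 to -29%. Each liver came from 1 mouse and is named here by its group and number.

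As background, complexes I and II pass electrons from NADH and succinate to coenzyme Q, complex III passes them on to cytochrome c, and complex IV, cytochrome c oxidase, hands them to oxygen. Complexes I, III and IV pump protons across the inner membrane, and complex V, the ATP synthase, uses the gradient to make ATP. Most subunits are encoded in the nucleus and imported, whereas a few hydrophobic core subunits of complexes I, III, IV and V are encoded by the mitochondrial DNA, which is transcribed and translated inside the organelle. The liver is rich in mitochondria, and gluconeogenesis and urea synthesis draw on the ATP that they make.

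Total counts ranged from 31945328 to 38306888 per liver in NCACS and from 31459179 to 40746178 in CACS. Levels are given as CPM, the count of a gene relative to the library total, after TMM scaling, and a log2 fold change is CACS over NCACS. A gene is called changed where the Benjamini-Hochberg adjusted p of the edgeR quasi-likelihood test is under 0.05. Of the 14143 genes tested, 538 (3.8%) were called, 267 (1.89%) higher and 271 (1.92%) lower in CACS. A liver is a mixture of cells, and in such bulk samples fewer cells of a type and less RNA per cell cannot be told apart. Markers of hepatocytes were high throughout, their summed level over 6 genes running from 63433 to 112592 CPM in NCACS livers and from 104212 to 130724 CPM in CACS livers. For the mitochondrial genes, NCACS 14 stood above and CACS 19 below the rest of its group, and the values that move most without 1 of these livers are also given without it.

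Among the matching genes, 10 did not reach the minimum, and 6 of them are genes of the mitochondrial genome. Of its 13 protein-coding genes, mt-Nd1, mt-Nd2, mt-Nd4, mt-Nd5, mt-Nd6, mt-Cytb and mt-Co1 had between 386616 and 5341256 counts over the 10 livers. In contrast, mt-Co2, mt-Co3, mt-Atp8 and mt-Nd4l had 0 counts in every liver, mt-Atp6 had 1 in all and mt-Nd3 had 6. These genes lie between mt-Co1 and mt-Nd4 on the same strand, and mt-Co2 and mt-Co3 encode core subunits of complex IV beside mt-Co1. Because the reads were 100 bases long, every 100-base window of each mitochondrial gene was looked up in the transcripts of all nuclear genes of GENCODE M21. For mt-Co2, mt-Co3, mt-Atp6, mt-Nd3 and mt-Nd4l, between 97.6 and 99.9% of the windows were found unchanged in copies annotated on chromosome 1 of GRCm38, named Gm28661, Gm28437, Gm10925, Gm28438 and Gm10222. The share was 60.8% for mt-Nd4, 30.8% for mt-Co1 and 3.19% for mt-Nd2, and no window of mt-Nd1, mt-Nd5, mt-Nd6, mt-Cytb or mt-Atp8 was found in these transcripts. The stretch below shows what a read from such a gene would look like, as mt-Nd3 (chrM:9462-9561, forward strand) and its nuclear copy Gm28438 (chr1:24613017-24613116, reverse strand) have the same 100 bases.
mt-Nd3: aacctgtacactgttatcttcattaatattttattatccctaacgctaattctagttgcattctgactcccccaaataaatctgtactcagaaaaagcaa
Gm28438: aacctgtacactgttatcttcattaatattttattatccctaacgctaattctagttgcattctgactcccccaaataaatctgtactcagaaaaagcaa
The nuclear copies themselves held few counts, with 26 over all livers for Gm28661, 10 for Gm28437 and 1 for Gm28438. Whether the shared sequence accounts for the zeros was not tested. No such window was found for mt-Atp8, which was at 0 as well. The search covered annotated transcripts alone, so it cannot show whether mt-Atp8 has a nuclear copy outside them. The levels of mt-Nd4 and mt-Co1 are therefore uncertain as absolute values, and these data hold no level of the other 6 genes in either group.

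The same search was made for the nuclear members, leaving out genes that overlap them. At least 1 window was shared with another gene in 16 members, and none was in 63. Atp5l, which encodes the g subunit of the ATP synthase membrane part, had the highest share, 61.3% of its windows, most often in the processed pseudogene Gm10221. Its level was 4.55 CPM per kilobase of transcript, while the other 15 subunits of complex V, leaving out the related protein Atp5s, lay between 45.6 and 577 CPM per kilobase. Ndufb4, an accessory subunit of complex I, shared 33.4% of its windows, mainly with Ndufb4c, and had 7.66 CPM per kilobase, against a median of 123 over the nuclear members. Ndufb2 had 6.64 CPM per kilobase with no shared window. That value depends on the length used, 2413 bases for Ndufb2 against 971 for Ndufb4. Whether a low level goes with shared sequence was not tested. Ndufa12 shared 17.7% of its windows with Gm15920, which itself held 5716 counts over the livers beside 8041 for Ndufa12. These genes and Ndufs5 were singled out after their values were seen, and how far their level differs from that of other subunits is uncertain.

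Ndufs5, an accessory subunit of complex I, varied between livers more than any other member of its complex, with a coefficient of variation within groups of 35.8%. In NCACS mice 11 to 15 its level was 7.57, 13.9, 14.8, 7.71 and 17.4 CPM, and in CACS mice 16 to 20 it was 11.6, 14.6, 8.13, 16.1 and 6.70 CPM. It was low in NCACS 11, NCACS 14, CACS 18 and CACS 20. The processed pseudogene BC002163 (chr16:42955631-42955949, forward strand of GRCm38) showed the opposite pattern, with 9.11, 8.22, 8.65 and 7.70 CPM in those same 4 livers and between 0.149 and 0.556 CPM in the other 6. The coding sequence of Ndufs5, on chromosome 4, has 321 bases, and 317 of the 319 bases aligned to BC002163 are identical. The first 150 coding bases of both are shown because a read can be told apart only where they differ, which is marked in capitals. The stretch of BC002163 is chr16:42955631-42955780.
Ndufs5: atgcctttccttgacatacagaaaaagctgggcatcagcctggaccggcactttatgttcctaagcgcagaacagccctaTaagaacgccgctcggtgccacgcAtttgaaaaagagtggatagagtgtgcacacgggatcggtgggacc
BC002163: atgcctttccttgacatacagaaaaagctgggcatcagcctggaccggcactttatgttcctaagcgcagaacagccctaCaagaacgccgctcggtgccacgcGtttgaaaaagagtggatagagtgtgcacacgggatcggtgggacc
When the levels of both were added, the sum was 16.7, 14.04, 15.2, 15.9 and 18.004 CPM in the NCACS livers and 11.7, 14.8, 16.8, 16.3 and 14.4 CPM in the CACS livers. The coefficient of variation over the 10 livers was 34.0% for Ndufs5 alone and 11.5% for the sum. The split between both genes differed from mouse to mouse within each group, and the group means of the sum, 15.96 ± 1.4999 and 14.8 ± 1.98 CPM (SD, n = 5 each), differed by less than their spread. The reason for the split was not tested.

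**Figure D1:**
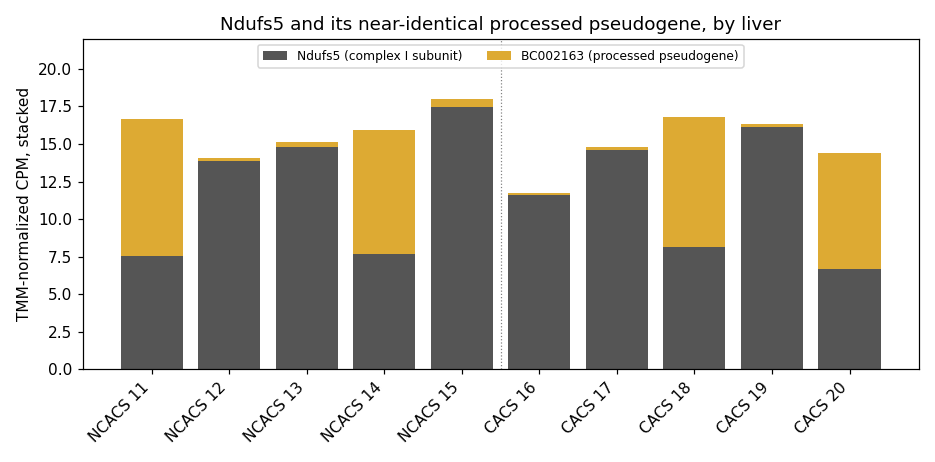
Bars give the TMM-normalized CPM of Ndufs5 (grey) and, stacked on it, of the processed pseudogene BC002163 (yellow) in each of the 10 livers, with NCACS left and CACS right of the dotted line. In NCACS 11, NCACS 14, CACS 18 and CACS 20 the pseudogene held 7.70 to 9.11 CPM and Ndufs5 6.70 to 8.13 CPM, while the summed height stayed between 11.7 and 18.004 CPM in all livers.

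Across the 86 members, cachectic and non-cachectic livers were close. A single member of the 86 was called, Cox7a2l, which was higher in CACS, and none was called lower. Of all genes tested 3.8% were called, 1.89% higher and 1.92% lower. An unadjusted p-value under 0.05 was found for 5 members (5.81%), 2 higher and 3 lower, where 21.6% of all genes tested had one. The CPM values of both groups did not overlap for 3 members (3.49%), against 7.07% of all genes tested. The log2 fold change was above 0 for 33 members and below 0 for 53, with a median of -0.03, beside -0.01 over all genes tested. By genome, the median was -0.02 for the 79 nuclear members and -0.33 for the 7 mitochondrial ones. The nuclear median stayed below 0 under every scaling and tool and turned above 0 in the fits without NCACS 11, NCACS 14, CACS 16 or CACS 19, with a range from -0.06 to 0.01, whereas the mitochondrial one stayed between -0.38 and -0.24.

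A p-value that misses the threshold does not show that a level is unchanged, so the interval of each difference is of more use here. For 70 of the 79 nuclear members (88.6%), the 95% interval of the log2 fold change lay within 0.5 of zero on both sides, which is a change of at most 1.41-fold. The same held for 3 of the 7 mitochondrial members. Over all genes tested the share was 39.2%. It was 57.7% over the 8730 genes whose mean CPM lay in the range of the middle 90% of nuclear members. That range is wide and its genes were not matched to the members by level, so abundance was not held equal. The median coefficient of variation between mice of a group was 12.2% for the nuclear and 16.03% for the mitochondrial members. It was 18.5% over all genes tested and 13.9% over the 8730 genes of that range.

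**Figure D2:**
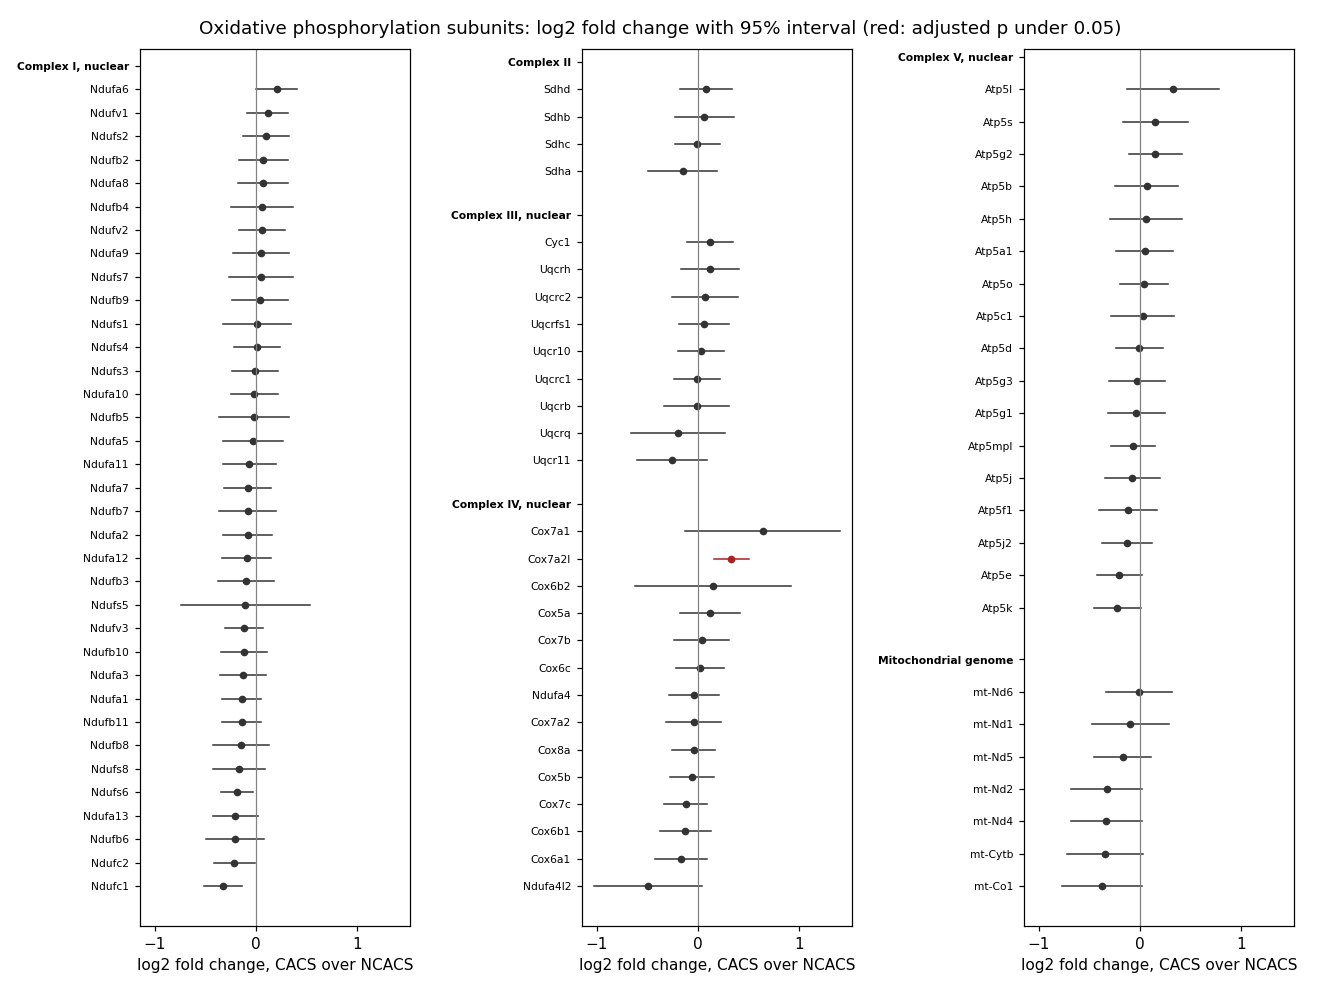
Points give the log2 fold change of each of the 86 members, CACS over NCACS, and lines its 95% interval, by complex and with the mitochondrial genes apart. Cox7a2l (0.33), in red, is the single member past the adjusted threshold, the points of the 7 mitochondrial genes all lie below 0, and wide intervals belong to rare paralogs such as Cox7a1 and Cox6b2.

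Cox7a2l encodes a relative of the Cox7a subunits that joins complexes III and IV into supercomplexes (also known as SCAFI). Its gene (ENSMUSG00000024248) spans chr17:83501918-83517330 on the reverse strand of GRCm38. In NCACS its level was 63.1, 62.3, 57.9, 65.2 and 68.5 CPM, and in CACS it was 79.7, 76.1, 77.8, 75.6 and 89.4 CPM. Every CACS liver was above every NCACS liver. The group means were 63.4 ± 3.90 and 79.7 ± 5.67 CPM (SD, n = 5 each), a ratio of 1.26. On the log2 scale the difference was 0.33 with a standard error of 0.0794 (edgeR, unadjusted p = 0.00141, adjusted p = 0.0431). The call lay close to the threshold and was lost in each of the 10 edgeR fits that left out 1 liver, with adjusted p-values from 0.0536 to 0.0911 and log2 fold changes from 0.29 to 0.36. With all livers it was kept in limma-voom (adjusted p = 0.0481) and in DESeq2 (adjusted p = 0.00336), which called more genes in all. It was lost in edgeR with raw library totals and without a filter. Cox7a2l shared 9.98% of its windows with the pseudogene Gm6969, which had 104 counts over all livers.

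The Cox7a subunits themselves are Cox7a2 and Cox7a1. The ubiquitous form Cox7a2 averaged 138 ± 15.3 CPM in the NCACS livers and 134 ± 21.1 CPM in the CACS livers (SD, n = 5 each), with a log2 fold change of -0.04 (interval from -0.31 to 0.23). The heart and muscle form Cox7a1 was rare, with 13 to 54 counts per liver, and its log2 fold change of 0.64 did not pass the threshold (interval from -0.13 to 1.41). On the scale of CPM per kilobase, Cox7a2l made up 20.1 to 22.9% of the family in NCACS livers and 21.99 to 29.3% in CACS livers, and these ranges overlapped. The shares depend on the lengths used, 1102.5 bases for Cox7a2l and 659 for Cox7a2.

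**Figure D3:**
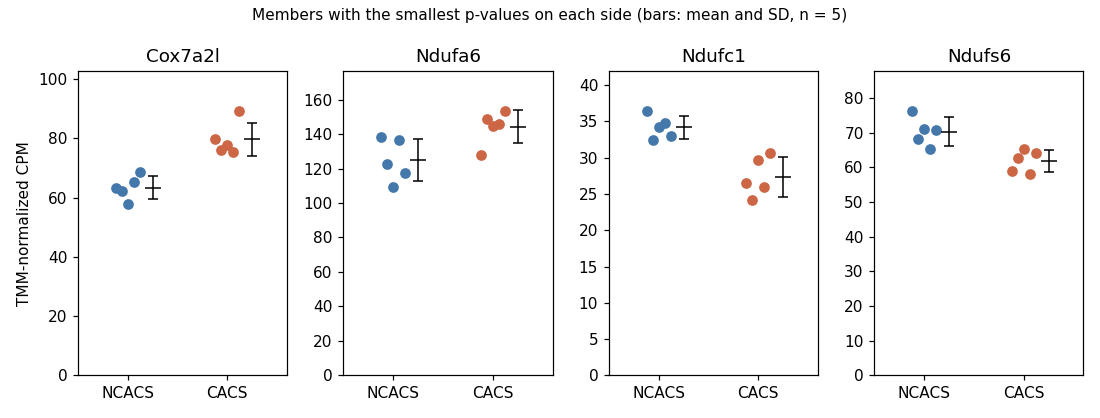
Points give the TMM-normalized CPM of Cox7a2l, Ndufa6, Ndufc1 and Ndufs6 in the 5 NCACS and 5 CACS livers, with the mean and SD beside them. The groups do not overlap for Cox7a2l (57.9 to 68.5 against 75.6 to 89.4 CPM) and Ndufc1 (32.4 to 36.5 against 24.1 to 30.6 CPM), all but touch at 65.3 CPM for Ndufs6, and overlap for Ndufa6.

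Complex I, the NADH dehydrogenase, had 35 nuclear members, of which 12 were above 0 and 23 below, with a median log2 fold change of -0.08 and none called. The core subunits that carry the flavin and iron-sulphur clusters or bind quinone had a median of 0.05 over 7 genes, 5 above 0 and 2 below. The 28 accessory subunits had a median of -0.08, with 7 above 0 and 21 below. Of the core subunits, Ndufv1, which binds NADH and flavin, had a log2 fold change of 0.12 (interval from -0.08 to 0.32), and Ndufs1, which holds several of the clusters, had 0.01 (interval from -0.32 to 0.35). Ndufa2, the median member, had -0.08 (interval from -0.32 to 0.17). The interval held 0 for 31 of the 35. The median of the complex depended on single livers, moving to -0.01 without CACS 16 or NCACS 15 and to -0.02 without NCACS 11, and the nuclear medians of complexes II to V given below changed sign in some of these fits.

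The lowest value in complex I was that of Ndufc1, a small accessory subunit of the membrane arm (chr3:51404677-51408988, reverse strand). Its level was 36.5, 32.4, 34.3, 34.7 and 33.0 CPM in NCACS and 26.5, 24.1, 29.7, 25.9 and 30.6 CPM in CACS. All CACS livers were below all NCACS livers, and the CACS mean was 0.800 of the NCACS mean. The log2 fold change of -0.32 (standard error 0.0861) did not pass the threshold in edgeR (adjusted p = 0.0600). DESeq2, which called more genes in all, gave an adjusted p of 0.0120. Its partner in the membrane arm, Ndufc2, had 39.1, 36.5, 36.4, 37.4 and 31.9 CPM in NCACS and 33.5, 28.7, 30.9, 27.7 and 35.8 CPM in CACS. The groups overlapped, at a log2 fold change of -0.21 (edgeR, adjusted p = 0.213). Ndufs6, an accessory subunit at the junction of both arms, had 76.4, 68.0, 70.9, 65.3 and 70.7 CPM in NCACS and 59.0, 62.6, 65.3, 58.1 and 64.2 CPM in CACS. The lowest NCACS and the highest CACS liver all but touched, at a log2 fold change of -0.18 (edgeR, adjusted p = 0.175). Among the accessory subunits above 0, Ndufa6 stood first. It had 138, 123, 109, 136 and 118 CPM in NCACS and 128, 149, 145, 146 and 154 CPM in CACS, a log2 difference of 0.21 (edgeR, adjusted p = 0.223). CACS 16 lay within the NCACS range, and the other 4 CACS livers were above it. Ndufa6 was also the most abundant nuclear member of the complex per length, at 352 CPM per kilobase.

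Complex II, the succinate dehydrogenase that also serves the TCA cycle, is encoded wholly in the nucleus. All 4 of its genes had intervals within 0.5 of zero, and the median log2 fold change was 0.03. Sdha, the flavoprotein, had 512, 428, 343, 561 and 566 CPM in NCACS and 407, 504, 487, 371 and 403 CPM in CACS, and the groups overlapped (log2 fold change -0.15, interval from -0.49 to 0.19). The iron-sulphur subunit Sdhb, the most abundant of the complex per length at 173 CPM per kilobase, had 0.06 (interval from -0.23 to 0.36). The membrane anchors Sdhc and Sdhd had log2 fold changes of -0.01 and 0.08. The complex had its lowest median level in NCACS 13 (-0.34 on the log2 scale relative to the mean of the 10 livers) and its highest in NCACS 14 (0.22), both in the same group.

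Complex III, the cytochrome bc1 complex, had 9 nuclear members with a median log2 fold change of 0.03, 5 above 0 and 4 below. Cyc1, the cytochrome c1 that reduces cytochrome c, averaged 179 ± 16.8 CPM in the NCACS livers and 195 ± 20.9 CPM in the CACS livers (SD, n = 5 each), at a log2 fold change of 0.12 (interval from -0.10 to 0.35). The Rieske iron-sulphur protein Uqcrfs1 had 0.06 (interval from -0.19 to 0.31), and the core protein Uqcrc1 had -0.01 (interval from -0.24 to 0.22). Uqcrh, the hinge protein, was the most abundant per length, at 370.1 CPM per kilobase, with a log2 fold change of 0.12. The small subunits Uqcrq and Uqcr11 were the least steady of the complex, with coefficients of variation of 25.7 and 18.9%. Uqcr11 had 157, 129, 140.1, 104 and 92.7 CPM in NCACS and 92.3, 92.5, 90.6, 118 and 127 CPM in CACS. Each group held high and low livers, and its log2 fold change of -0.26 did not pass the threshold (interval from -0.60 to 0.09).

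Complex IV had 14 nuclear members with a median log2 fold change of -0.04, 6 above 0 and 8 below, and Cox7a2l was the single one called. Ndufa4, first assigned to complex I and now known as a subunit of cytochrome c oxidase, was the most abundant per length at 613 CPM per kilobase. It averaged 286 ± 30.6 CPM in the NCACS livers and 279 ± 31.7 CPM in the CACS livers (SD, n = 5 each), a log2 difference of -0.04 (interval from -0.29 to 0.21). Cox5a, a subunit of the matrix side, had 44.5, 35.9, 41.2, 43.8 and 47.3 CPM in NCACS and 34.7, 49.3, 50.6, 39.6 and 57.6 CPM in CACS. The CACS livers spanned the NCACS range, at a log2 fold change of 0.12 (interval from -0.17 to 0.42).

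Several subunits of complex IV come in forms that differ between tissues, and in these livers the liver or ubiquitous form prevailed. On the scale of CPM per kilobase, the lowest share in any liver was 99.5% of the Cox6a family for Cox6a1, 99.5% of Cox6b for Cox6b1, 99.5% of Cox8 for Cox8a and 99.6% of the pair with Ndufa4l2 for Ndufa4. The heart and muscle forms Cox6a2 and Cox8b stayed under the minimum, with at most 42 and 13 counts in any liver. Cox6a2 reached 1.25 CPM in NCACS 11 and lay between 0.0787 and 0.388 CPM in the other livers. The summed level of 5 striated muscle genes was also highest in NCACS 11, and ran from 23.7 to 123 CPM in NCACS livers and from 9.18 to 42.1 CPM in CACS livers. Their part in the Cox6a2 level was not tested. The testis forms Cox7b2 and Cox8c had 0 counts in every liver, and Cox6b2, also known from testis, had 8 to 22 counts per liver and a log2 fold change of 0.15 (interval from -0.63 to 0.92). Among the common forms, Cox6a1 had a log2 fold change of -0.17, Cox6b1 of -0.13, Cox7b of 0.04 and Cox8a of -0.04, none of which passed the threshold.

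Complex V had 17 nuclear members with a median log2 fold change of -0.01, 8 above 0 and 9 below, and none called. The F1 subunits, which form the catalytic head, had a median of 0.03 over 5 genes, and the 11 subunits of the membrane part and stalks had a median of -0.04. Atp5b, the catalytic beta subunit, was the most abundant of the complex per length at 577 CPM per kilobase. Its level was 1207, 1018, 825, 1171 and 1185 CPM in NCACS and 1056, 1248, 1233, 925 and 1187 CPM in CACS. The groups covered much the same range, at a log2 fold change of 0.06 (interval from -0.25 to 0.37). Atp5d, the delta subunit of the head and the median member, had -0.01 (interval from -0.24 to 0.22).

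The c-ring of the ATP synthase can be built from the products of Atp5g1, Atp5g2 and Atp5g3, which differ in their import signals and give the same mature protein. On the scale of CPM per kilobase, Atp5g3 made up 75.2 to 84.2% of the family in NCACS and 77.0 to 83.1% in CACS. These shares depend on the lengths used, 2675.5 bases for Atp5g1, 586 for Atp5g2 and 718.5 for Atp5g3. Before division by length, the means over the 10 livers were 122, 29.8 and 292 CPM, so Atp5g1 weighs more on that scale. The log2 fold change was -0.03 for Atp5g3 (interval from -0.31 to 0.25) and -0.04 for Atp5g1 (interval from -0.32 to 0.24). For Atp5g2 it was 0.15 (interval from -0.11 to 0.41), and 34.7% of the Atp5g2 windows recur in another gene. Atp5s, a protein related to the complex that is not a core subunit, averaged 5.16 ± 0.839 and 5.74 ± 0.700 CPM in the NCACS and CACS livers (SD, n = 5 each), at a log2 fold change of 0.15 (interval from -0.17 to 0.47). Atpif1, the natural inhibitor of ATP hydrolysis by complex V, is outside the symbol pattern. It averaged 8.87 ± 1.23 CPM in the NCACS livers and 6.85 ± 0.903 CPM in the CACS livers (SD, n = 5 each), a log2 difference of -0.37 that did not pass the threshold (edgeR, adjusted p = 0.135).

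**Figure D4:**
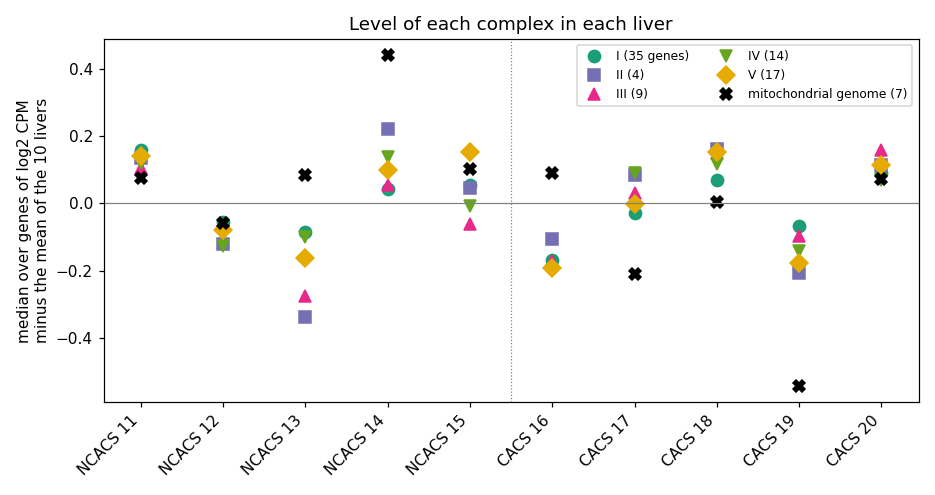
Each symbol gives, for 1 liver, the median over the nuclear members of a complex, or over the 7 mitochondrial members (crosses), of log2 CPM minus the mean of the 10 livers. The medians of the nuclear complexes lie between -0.34 and 0.22 and overlap between the groups, while the mitochondrial genes depart from them most in NCACS 14 (0.44) and CACS 19 (-0.54).

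All 7 measured genes of the mitochondrial genome had a lower mean in CACS, by log2 fold changes from -0.38 to -0.01, and none was called. Their unadjusted p-values in edgeR ran from 0.0594 to 0.932 and their adjusted p-values from 0.252 to 0.971. All but mt-Nd6, which lies on the other strand, are cut from shared transcripts, and the 7 cannot be read as independent results. mt-Co1, which encodes the catalytic subunit of complex IV, was the most abundant member of all per length, at 9937 CPM per kilobase. Its level was 17011, 14447, 16114, 22083 and 17087 CPM in NCACS and 15255, 13772, 13363, 9642 and 14752 CPM in CACS. The groups overlapped in that CACS 16 and CACS 20 were above NCACS 12. The log2 fold change was -0.38 (interval from -0.77 to 0.02), and it was -0.27 without NCACS 14.

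mt-Cytb, the cytochrome b of complex III, had 9757, 7797, 9169, 10677 and 7982 CPM in NCACS and 7371, 6568, 7976, 5166 and 8490.2 CPM in CACS. CACS 18 and CACS 20 lay within the NCACS range, and the log2 fold change was -0.35 (interval from -0.73 to 0.03), or -0.25 without CACS 19. The complex I genes mt-Nd2 and mt-Nd4 had log2 fold changes of -0.33 and -0.34, each with an interval that reached just past 0. Without NCACS 14 mt-Nd2 had -0.24 and mt-Nd4 -0.25, and without CACS 19 they had -0.27 and -0.24. In contrast, mt-Nd1 and mt-Nd5 had -0.10 (interval from -0.48 to 0.29) and -0.17 (interval from -0.46 to 0.11). In mt-Nd1, CACS 16 had 5308 CPM, second to the 6163 CPM of NCACS 14, and the sign of its log2 fold change turned to 0.01 when NCACS 14 was left out. Without CACS 19, mt-Nd5 had -0.13 and mt-Nd6, described next, 0.08.

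mt-Nd6 is the single protein-coding gene on the other strand of the mitochondrial DNA. It had 1046, 978, 1161, 1192 and 1180.3 CPM in NCACS and 1333, 1026, 1060.4, 797 and 1292 CPM in CACS, so that CACS livers were both the highest and the lowest. Its log2 fold change was -0.01 (interval from -0.34 to 0.32). The summed CPM of the other 6 genes was 39.9, 36.9, 34.1, 43.5 and 34.6 times that of mt-Nd6 in NCACS and 28.3, 32.0, 33.8, 31.7 and 28.9 times in CACS. The groups did not overlap, by the narrow gap between 34.1 in NCACS 13 and 33.8 in CACS 18. This ratio was chosen after the values had been seen and was given no test. The strand setting of the counting is not given in the sources used here, and without it reads of mt-Nd6 and of the opposite strand cannot be told apart.

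**Figure D5:**
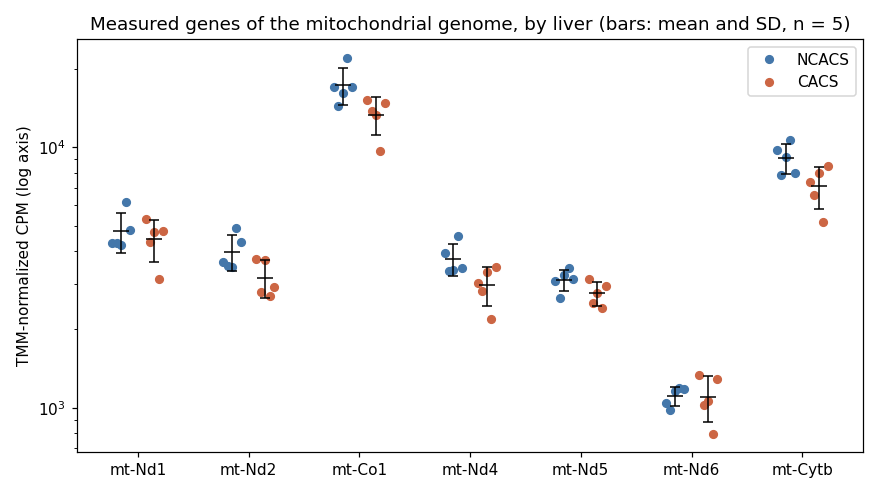
Points give the TMM-normalized CPM (log axis) of the 7 measured mitochondrial genes in each liver, in map order, with NCACS in blue, CACS in orange and bars for the mean and SD of 5 livers. The groups overlap for every gene, the mean is lower in CACS for each, and it differs least for mt-Nd6 (1112 against 1102 CPM).

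Together the 7 mitochondrial genes took 4.29 ± 0.641% of all counts in NCACS and 3.50 ± 0.486% in CACS (SD, n = 5 each). The share was 4.09, 3.88, 3.95, 5.43 and 4.12% in NCACS and 3.84, 3.61, 3.60, 2.65 and 3.79% in CACS. Every CACS liver was below every NCACS liver, the narrowest gap being that between NCACS 12 and CACS 16. The CACS mean was 0.814 of the NCACS mean, 0.872 without NCACS 14 and 0.864 without CACS 19. After TMM scaling the summed level averaged 43108 ± 5958 CPM in the NCACS livers and 34899 ± 5382 CPM in the CACS livers (SD, n = 5 each), a ratio of 0.810, and the groups overlapped. A sum over members is a score over a chosen list, so no p-value is given. The log2 ratio of the summed levels was -0.30, and it stayed between -0.35 and -0.22 when each liver was left out in turn or another scaling was used.

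The 79 nuclear members took 1.06 ± 0.0988% of all counts in NCACS and 1.06 ± 0.101% in CACS (SD, n = 5 each), and the ratio of their summed CPM was 0.991. The mitochondrial genes gave 4.05 ± 0.448 times the CPM of the nuclear members in NCACS and 3.31 ± 0.523 times in CACS (SD, n = 5 each). This ratio was 3.66, 3.74, 4.38, 4.68 and 3.81 in NCACS and 4.13, 3.10, 3.21, 2.71 and 3.41 in CACS. CACS 16 lay within the NCACS range, and the other 4 CACS livers were below it. The ratio of the group means was 0.818, 0.850 without NCACS 14 and 0.854 without CACS 19. The libraries were made from poly(A) RNA. The summed level of both mitochondrial ribosomal RNAs averaged 862 ± 265 CPM in the NCACS livers and 719 ± 176 CPM in the CACS livers (SD, n = 5 each). Its highest values were those of NCACS 14 and CACS 16, the ratio of the group means was 0.834 and became 0.959 without NCACS 14, and the part of the selection in the mitochondrial shares was not tested.

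Promoters of genes for mitochondrial proteins are known for binding sites of NRF1, GABP, YY1 and the estrogen-related receptors. RefSeq promoters (GRCm38.p6, from 250 bases before to 50 after the start) were at hand for 66 of the 79 nuclear members and for 27025 genes in all. The NRF1 core CGCATGCG was found on either strand in 9 (13.6%, against 2.07% of all genes), AAGATGGC of YY1 in 10 (15.2%, against 3.19% of all genes), CCGGAAG of GABP in 16 (24.2%, against 9.93% of all genes) and AAGGTCA of the estrogen-related receptors in 8 (12.1%, against 5.38% of all genes). At least 1 of the 4 was in 50% of these members and 18.9% of all genes. A match says only that these letters are in the window. The 10 members with the YY1 letters had a median log2 fold change of -0.12, 3 above 0 and 7 below, beside -0.02 over the 56 without them. For the GABP letters the medians with and without were -0.08 and -0.02, for the NRF1 core -0.06 and -0.03, and for the AAGGTCA letters 0.02 and -0.04. No difference between members with and without a motif was tested.

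The promoters of the 3 members whose groups did not overlap are shown, with the letters of any of the 4 motifs in capitals. Ndufc1 (chr3:51408906-51409205, reverse strand) and Ndufs6 (chr13:73328433-73328732, reverse strand) both hold AAGATGGC on the printed strand, beginning 22 and 33 bases after the start. These letters contain an ATG, and whether it is the start codon of the protein was not looked up. The Cox7a2l window (chr17:83514284-83514583, reverse strand) holds none of the 4. It lies inside the GENCODE span of the gene, which begins at chr17:83517330 on that strand, whereas the Ndufc1 and Ndufs6 windows cover the GENCODE start. The sequence at the GENCODE start of Cox7a2l was not searched.
Cox7a2l: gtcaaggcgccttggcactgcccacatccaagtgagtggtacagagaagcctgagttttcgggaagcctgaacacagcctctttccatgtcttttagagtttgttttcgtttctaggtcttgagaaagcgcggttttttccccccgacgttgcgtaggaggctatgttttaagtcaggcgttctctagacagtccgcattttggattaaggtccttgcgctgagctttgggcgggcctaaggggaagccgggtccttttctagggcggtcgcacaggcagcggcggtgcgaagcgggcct
Ndufc1: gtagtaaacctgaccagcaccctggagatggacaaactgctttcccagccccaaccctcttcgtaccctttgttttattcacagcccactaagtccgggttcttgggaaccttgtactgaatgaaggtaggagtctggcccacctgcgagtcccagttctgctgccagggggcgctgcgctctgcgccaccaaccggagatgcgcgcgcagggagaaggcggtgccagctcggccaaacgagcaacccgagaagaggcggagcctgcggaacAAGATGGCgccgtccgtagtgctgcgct
Ndufs6: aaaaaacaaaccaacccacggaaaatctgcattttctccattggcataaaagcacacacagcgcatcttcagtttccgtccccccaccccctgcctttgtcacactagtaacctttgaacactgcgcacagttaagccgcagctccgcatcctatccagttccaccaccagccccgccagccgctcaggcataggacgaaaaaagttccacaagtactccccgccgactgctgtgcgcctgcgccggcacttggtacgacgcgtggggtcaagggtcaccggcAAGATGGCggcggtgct
The factors behind these letters were themselves measured, and none passed the threshold. Nrf1 had a log2 fold change of 0.18, Gabpa of -0.05, Yy1 of 0.12 and Esrra of 0.27, with edgeR adjusted p-values of 0.506, 0.865, 0.582 and 0.538. Ppargc1a, the coactivator that drives mitochondrial biogenesis, averaged 11.1 ± 3.94 CPM in the NCACS livers and 13.5 ± 3.44 CPM in the CACS livers (SD, n = 5 each), a log2 difference of 0.28 (edgeR, adjusted p = 0.531). Tfam, which packages and transcribes the mitochondrial DNA, had -0.02 (interval from -0.28 to 0.25). In the list of 12 measured biogenesis regulators none was called, and the unadjusted p was below 0.05 for 1, Pprc1, a coactivator related to Ppargc1a that is named after its values were seen. It averaged 16.6 ± 5.37 CPM in the NCACS livers and 30.4 ± 7.59 CPM in the CACS livers (SD, n = 5 each), without overlap between 22.2 CPM as the highest NCACS and 22.5 CPM as the lowest CACS liver. Its log2 fold change of 0.87 did not pass the threshold in edgeR (adjusted p = 0.0623), while it did in DESeq2 (adjusted p = 0.00919), which called more genes in all.

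The genes around the respiratory chain are read against the shares over all genes tested, of which 3.8% were called and 21.6% had an unadjusted p below 0.05. None was called among 17 assembly factors of complex I, 4 of complex II, 6 of complex III, 20 of complex IV and 5 genes for the assembly and inhibition of complex V. The same held for 76 proteins of the mitochondrial ribosome (median log2 fold change -0.05), 32 genes that copy, transcribe and translate the mitochondrial genome (0.03), 14 enzymes of the TCA cycle (0.09), 7 carriers and uncouplers (0.01) and 7 other enzymes that feed coenzyme Q (-0.03). At an unadjusted p-value under 0.05 there were 3 of 17, 1 of 4, 2 of 6, 0 of 20 and 2 of 5 assembly genes, 2 of 76 ribosomal proteins, 5 of 32 genes of mitochondrial genome expression, 3 of 14 TCA cycle enzymes, 0 of 7 carriers and 1 of 7 other inputs. DESeq2 called between 1 and 3 genes in 5 of the lists without an edgeR call. It also called more of all genes tested than edgeR did, so its counts cannot be read against the 3.8%. Of the subunits and carriers outside the pattern, Cox4i1 had a log2 fold change of 0.08 (interval from -0.13 to 0.29) and cytochrome c, Cycs, of 0.05 (interval from -0.14 to 0.25). Ucp2, an uncoupling protein relative, had -0.06 (interval from -0.52 to 0.41).

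In coenzyme Q synthesis 1 of 13 genes was called, and the unadjusted p was below 0.05 for 5. Pdss2, a subunit of the enzyme that makes the polyprenyl tail of coenzyme Q, averaged 13.2 ± 1.603 CPM in the NCACS livers and 8.90 ± 1.49 CPM in the CACS livers (SD, n = 5 each). Its log2 fold change of -0.56 passed the threshold (edgeR, adjusted p = 0.0435), and the call was lost in 8 of the 10 fits without 1 liver. The median over the 13 genes was -0.07, with 6 above 0 and 7 below.

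Markers of other cells were measured beside these results. Of 6 Kupffer cell markers, 1 was called (Cd5l, lower, at a log2 fold change of -0.90), and their sum ran from 149.9 to 251 CPM in NCACS livers and from 87.3 to 175 CPM in CACS livers. Of the 6 hepatocyte markers, 1 was called (Hnf4a, higher, at a log2 fold change of 0.50). The call of Cd5l was lost in 8 and that of Hnf4a in 9 of the 10 fits without 1 liver. Summed leukocyte markers ran from 9.55 to 28.4 CPM in NCACS livers and from 5.82 to 13.8 CPM in CACS livers, and those of endothelial cells from 101 to 144 CPM in NCACS livers and from 134 to 165 CPM in CACS livers. Sums overlapped between groups for Kupffer cells, leukocytes and endothelial cells, and also for stellate cells, cholangiocytes, red cells and lung epithelium. By direction, the log2 fold change was below 0 for all 6 Kupffer, all 4 tested leukocyte and all 5 striated muscle markers. In each of these lists 4 had an unadjusted p under 0.05 in edgeR. Of the endothelial markers 4 were above 0 and 1 below, and of the hepatocyte markers 4 were above and 2 below. Of the brown fat markers Ucp1 was at 0 in every liver. The part of these shifts in the levels of the members was not tested.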

How the data were processed

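Liver RNA was extracted, selected for poly(A) with a stranded kit and sequenced as single reads. Per the labels, the authors aligned the reads to GRCm38 with STAR 2.4.1d and counted them per gene with HTSeq 0.6.1; the deposited values are raw counts, with no normalization. The annotation release and the strand and multi-mapping settings are not given in the sources used here. Of the 43629 genes, 1081 had no GENCODE M21 entry. A further allele of the model, shared by both groups, is not reported here. Mice were grouped by the labels, which give no batch. No pair of livers in a group agreed within counting noise, chi-square over its degrees of freedom being at least 46.1. P-values set the difference between groups against the spread between mice within groups, for these 10 mice.

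Counts were filtered with filterByExpr (minimum 10), given TMM factors and fitted in edgeR 4.0.16 (R 4.3.3) by quasi-likelihood, with Benjamini-Hochberg adjustment over the 14143 genes kept; 95% intervals come from the same fit. The code was tested on simulated data, where 8 of 180 edgeR calls and 32 of 215 DESeq2 calls were false. DESeq2 1.42.0, limma-voom (limma 3.58.1), other scalings, filters and thresholds, and fits without 1 liver were the alternatives. Levels per length use the median length of protein-coding transcripts. Named members are those called, the 13 mitochondrial genes, the 6 highest and 6 lowest fold changes at a mean of at least 5 CPM, the most abundant per length, families with tissue-restricted forms and the median of each complex. Further genes were named for their role or after their values were seen: Pprc1, Ndufb2, Ndufb4, Ndufa12, Ndufs5, Ndufs6, Ndufc2, Ndufs1, Ndufv1, Sdha, Sdhd, Uqcrfs1, Uqcrq and Atp5l. The members and gene lists were chosen with earlier results of these data known.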

Additional observations from a re-analysis of the deposited data

Results flagged for a closer look

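Of 114 combinations of a measure and a group, 5 held a liver that stood apart by Dixon's criterion, and chance alone gives about 1 in 20. The share of counts in mitochondrial genes was 5.43% in NCACS 14, the next liver of its group having 4.12%, and 2.65% in CACS 19, the next having 3.60%. The summed level of both mitochondrial ribosomal RNAs was 1313 CPM in NCACS 14, beside 852 CPM in the next liver, and 1029.6 CPM in CACS 16, beside 680 CPM in the next. The level of mt-Co1 in CACS 19 lay at -0.64 on the log2 scale relative to the mean of the 10 livers, beside -0.17 in the next.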

How the results depend on the processing

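The number of genes called was 1386 of 14143 with DESeq2 (672 genes called higher, 714 genes called lower), beside 538 in the main edgeR fit. It was 34 at an adjusted p under 0.01 (14 higher, 20 lower), and without a filter 173 were higher. Leaving out 1 liver gave 178 to 519 calls (79 to 246 higher, 96 to 273 lower), the lowest total without NCACS 11, and 8 of the 10 fits moved the count by over 1.5 times. Members called numbered 2 with DESeq2 and at an adjusted p under 0.1 (1 of them lower, Ndufc1), and 0 (0 higher) with raw library totals, without a filter, at an adjusted p under 0.01 and in every fit without 1 liver. DESeq2 called 2 of 17 genes of complex I assembly, 1 of 6 of complex III assembly and 2 of 32 of mitochondrial genome expression. It also called 1 of 12 biogenesis regulators, 3 of 14 TCA cycle enzymes and 2 of 13 genes of coenzyme Q synthesis. These counts stand beside its 1386 calls among 14143 genes. Coenzyme Q synthesis held 0 calls with raw library totals and without a filter. Without 1 liver, complex I assembly, the TCA cycle and coenzyme Q synthesis each held 0 to 1 calls. The cause of these moves was not tested, beyond that a fit without 1 liver holds fewer samples.

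With raw library totals the log2 fold change was 0.0062 for Sdhc, 0.0029 for Uqcrc1 and 0.0034 for Atp5d, and Ucp2 was at 0.0046 with limma-voom. For Ndufs5 and the genes whose log2 fold change is given in the text, ranges without 1 liver that spanned 0 were -0.17 to 0.014 for mt-Nd1, -0.090 to 0.085 for mt-Nd6, -0.0087 to 0.15 for Sdhb, -0.083 to 0.019 for Ndufa4, -0.020 to 0.13 for Atp5b, -0.12 to 0.030 for Atp5g1, -0.11 to 0.026 for Atp5g3, -0.015 to 0.098 for Cox7b, -0.11 to 0.012 for Cox7a2, -0.045 to 0.41 for Cox6b2, -0.13 to 0.0050 for Ndufa2, -0.048 to 0.039 for Sdhc, -0.052 to 0.045 for Uqcrc1, -0.066 to 0.061 for Atp5d, -0.098 to 0.057 for Tfam, -0.18 to 0.091 for Ucp2, -0.17 to 0.020 for Gabpa, -0.090 to 0.094 for Ndufs1 and -0.26 to 0.059 for Ndufs5.

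No paired analysis was possible because no replicate number occurs in both groups. Leaving out a liver for the ratios of the mitochondrial share, of mitochondrial to nuclear genes, of the ribosomal RNAs and of mt-Nd6 was chosen after seeing the data and changed no direction. The median of all genes moved by less than 0.1 on the log2 scale under every setting. Depth did not limit most members, while Cox7a1 and Cox6b2 rest on few counts per liver, and the genes at 0 counts have no level.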
